A study of Mus musculus with 6 samples.

Results

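Expression of 8 genes of apoptotic-cell clearance was examined in macrophages sorted from the mouse mammary gland. They were the TAM ligands Gas6 and Pros1, the TAM receptors Axl, Mertk and Tyro3, the phosphatidylserine receptor Timd4, the bridging protein Mfge8 and the lipid receptor Trem2. They were taken by symbol from a table of raw counts, which held all 8 among its 24061 gene symbols. The filter on low counts was passed by 7 of the 8, and Tyro3 did not pass it. Gas6 and Timd4 were among the genes that the study itself had picked out from these libraries, so their choice was not independent of the values given here.

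The libraries compared CD45+CD11b+F4/80+Lyve-1+ cells with CD45+CD11b+F4/80+Lyve-1- cells from FVB/N mice, to ask how macrophages that carry the hyaluronan receptor Lyve-1 differ from those that do not. There were 6 libraries, 3 of each subset, and each was made from both number 4 (inguinal) mammary glands of 4 mice, pooled after the lymph nodes had been taken out. Replicate 1 of each subset came from mice aged 6 weeks, and replicates 2 and 3 came from mice aged 10 weeks. The methods state that a further 6-week sample was dropped by the authors as an outlier, and nothing in the labels says that Lyve-1+ and Lyve-1- libraries with the same number came from the same mice.

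A cell that dies by apoptosis exposes phosphatidylserine on its surface, and phagocytes bind it before they engulf the cell, a process called efferocytosis. The TAM receptor tyrosine kinases do not touch the lipid themselves. Gas6 and protein S (Pros1) bridge the lipid to the receptor after vitamin K-dependent carboxylation, and signalling through the receptors also dampens interferon and cytokine responses. Tim-4 (Timd4) binds phosphatidylserine directly and marks several populations of tissue-resident macrophages, while Mfge8 links the lipid to integrins and is known from mammary tissue, where it was found on milk fat globules.

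The libraries held from 6478007 to 21406839 counts. With these totals, a count of 0 allows up to 3 counts, or 0.144 to 0.437 CPM (counts set to a common scale by each library's TMM-adjusted size), a limit for counting error only. Lyve1 itself had 17, 75 and 51 counts in the Lyve-1- libraries against 30871, 16441 and 4735 counts in the Lyve-1+ libraries, so each library matched its label. The 9 macrophage markers, Adgre1 and Csf1r among them, were detected in each library and summed to 9680 to 13700 CPM in Lyve-1- and 11100 to 13300 CPM in Lyve-1+ libraries. Markers of other cells were present at lower sums, and none of the genes in these lists was called by edgeR at the stricter limits given further on. Lyve1 also missed those limits, so the lack of calls does not show that the subsets held equal shares of other cells. The 12 fibroblast markers summed to 1160 to 1310 CPM in Lyve-1- and 1970 to 7700 CPM in Lyve-1+ libraries, with the highest sum in Lyve-1+ replicate 3, and the 9 dendritic cell markers summed to 679 to 2260 CPM in Lyve-1- and 159 to 582 CPM in Lyve-1+ libraries. Epithelial markers ranged from 56.2 to 482 CPM in Lyve-1- and from 66 to 134 CPM in Lyve-1+ libraries. The 6 lymphatic endothelial markers summed to 14.6 to 60.2 CPM in Lyve-1- and 17.1 to 42.7 CPM in Lyve-1+ libraries, with Ccl21a at 0 in all 6 libraries, Prox1 at 0 in 2 Lyve-1- libraries and Pdpn detected in each library. The 7 neutrophil markers summed to 73.1 to 118 CPM in Lyve-1- and 90.5 to 497 CPM in Lyve-1+ libraries. S100a8, S100a9 and Cxcr2 were higher in each Lyve-1+ library. Csf3r and Retnlg overlapped, with Retnlg at a log2 fold change of -1.08, and Ngp and Camp did not pass the filter. The 5 mast cell markers summed to 39.3 to 78.3 CPM in Lyve-1- and 37.9 to 215 CPM in Lyve-1+ libraries. Among them Cpa3 was higher and Kit lower in each Lyve-1+ library, and the others overlapped. Counts over 1112 olfactory receptor genes, which macrophages are not known to use, ran from 0.0343 to 2.65 per kb and were highest in Lyve-1- replicate 3 and Lyve-1+ replicate 2. These were raw counts, not scaled to library size, and Lyve-1+ replicate 2 was the deepest library. It had counts in 134 of the olfactory receptor genes, against 370 in Lyve-1+ replicate 1.

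**Figure D1:**
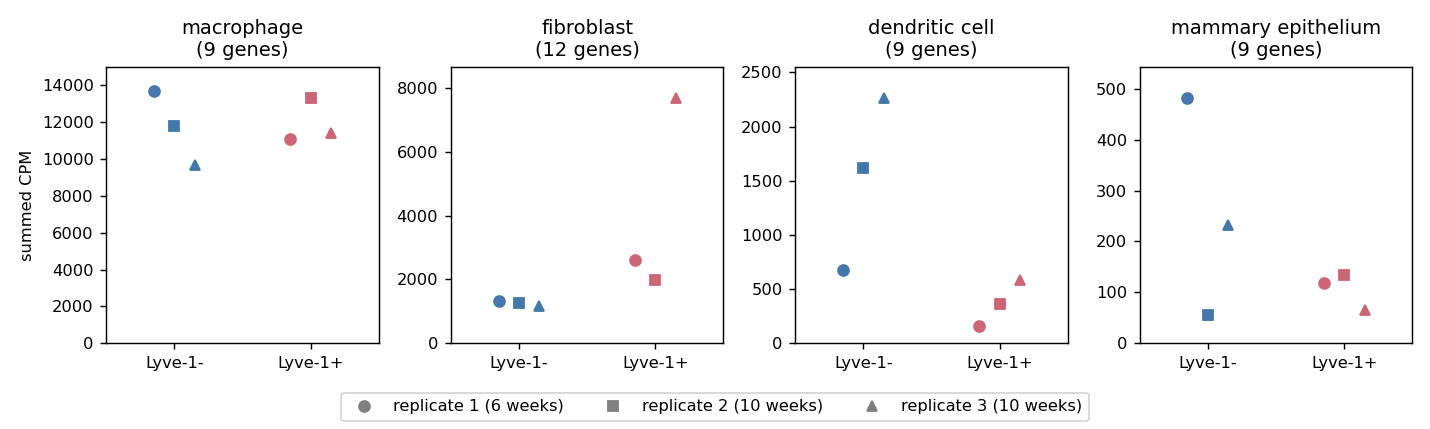
Summed TMM-scaled CPM (y axis) of marker genes of 4 cell types in each library, by subset (x axis), with the symbol giving the replicate and age. The macrophage sums overlap between the subsets, the fibroblast sums are higher in the 3 Lyve-1+ libraries, and the dendritic cell sums are higher in the 3 Lyve-1- libraries.

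Gas6 and Timd4 were higher in Lyve-1+ macrophages, by 5.79-fold and 4.05-fold. Pros1 and Trem2 were also higher in every Lyve-1+ library than in any Lyve-1- library, but their differences did not pass the edgeR test, and Axl, Mertk and Mfge8 had overlapping values in the subsets. By edgeR's quasi-likelihood test, 0 of the 7 members tested passed the limits of the study (an adjusted p below 0.01 together with a log2 fold change greater than 1 in size), which 15 of 13348 genes, or 0.112%, did, 14 of them (0.105%) higher in Lyve-1+. Lyve1, the marker of the sort, did not pass these limits either. Its log2 fold change was 7.93 ± 0.94 (SE), with an edgeR adjusted p of 0.0254. Missing these limits therefore does not show that a gene was equal in the subsets. At an adjusted p under 0.05, 2 members passed, Gas6 and Timd4, both higher in Lyve-1+, against 0.629% of all genes in either direction and 0.45% higher in Lyve-1+. An unadjusted p under 0.05 was found for 3 members, Pros1 being the third, against 7.69% of all genes. DESeq2 called Gas6 and Timd4 at the stricter limits, at which it called 0.999% of its 15419 genes. The Lyve-1+ libraries lay above the Lyve-1- libraries for 4 of the 7 members, against 7.82% of all genes. The log2 fold change was above 0 for 6 of the 7, against 49.4% of all genes, and its median was 1.17 in the members and -0.01 over all genes tested. The p-values measure the spread between these pools. In RNA from sorted populations, fewer cells of a type and less RNA per cell cannot be told apart.

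**Figure D2:**
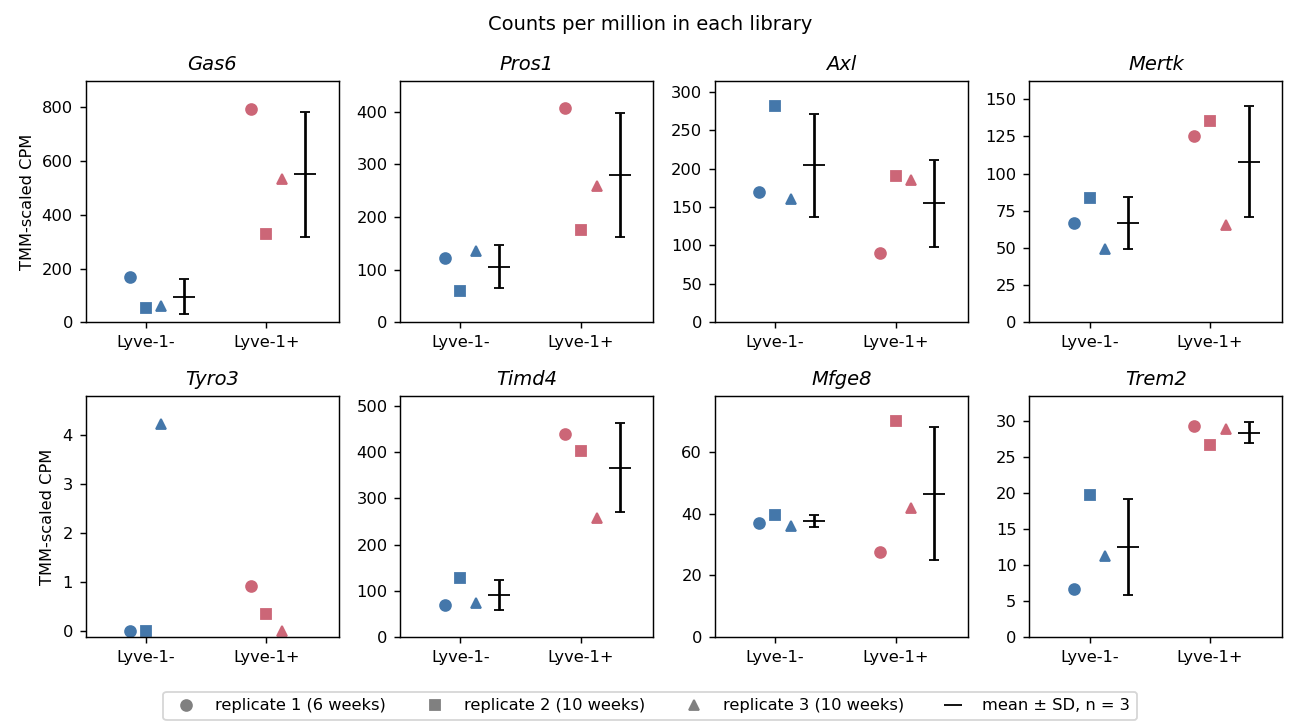
TMM-scaled CPM (y axis, linear, its scale set for each gene) of the 8 genes in each library, by subset (x axis), with the mean and SD of 3 libraries as black bars except for Tyro3. For Gas6, Pros1, Timd4 and Trem2 the 3 Lyve-1+ libraries all lie above the 3 Lyve-1- libraries, while for the other 4 genes the subsets overlap.

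Gas6, the ligand that binds all of the TAM receptors, lies at chr8:13465374-13494490 on the minus strand (mm10, GENCODE M21) and has 15 exons in its principal transcript. It had 2013, 607 and 424 counts in Lyve-1- replicates 1, 2 and 3, or 169, 53.9 and 61.8 CPM. In the Lyve-1+ replicates it had 10394, 6822 and 4221 counts, or 792, 327 and 532 CPM. The lowest Lyve-1+ library was therefore above the highest Lyve-1- library, and in both subsets the 6-week pool was the highest. The means were 95 ± 64.4 CPM in Lyve-1- and 550 ± 233 CPM in Lyve-1+ (SD, n = 3), with a log2 fold change of 2.53 ± 0.47 (SE) and an edgeR adjusted p of 0.0376. The adjusted p was 7.89e-06 by DESeq2 and 0.179 by edgeR when Lyve-1- replicate 3 was left out. With Lyve-1+ replicate 3 left out, the log2 fold change was again 2.53, with an edgeR adjusted p of 0.116. Lyve-1+ replicates 1 and 2 also had fibroblast sums above every Lyve-1- library, so this fit cannot decide the part of fibroblast RNA. Only 34 exonic bases of Gas6 overlap another gene, Tmem255b on the opposite strand, which had 10 counts over all 6 libraries.

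Pros1, the anticoagulant protein S and the other ligand, lies at chr16:62854307-62929346 on the plus strand. It stood at 123, 59.7 and 135 CPM in the Lyve-1- replicates and at 407, 176 and 259 CPM in the Lyve-1+ replicates. As for Gas6, the subsets did not overlap and Lyve-1+ replicate 1 was the highest library. The means were 106 ± 40.4 and 280 ± 117 CPM (SD, n = 3), and the log2 fold change of 1.41 ± 0.37 (SE) had an edgeR adjusted p of 0.141, which did not pass either threshold, while DESeq2 gave an adjusted p of 0.038. With Lyve-1+ replicate 3 left out, the log2 fold change was 1.44, with an edgeR adjusted p of 0.12.

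The promoters of the ligands, and of Timd4 and Trem2 further on, are shown because these were the members whose Lyve-1+ libraries all lay above the Lyve-1- libraries. Each is the 250 bases before the gene's start in RefSeq (GRCm38.p6), written 5′ to 3′ on the gene's own strand, with capitals marking a GC box (CCGCCC or its reverse complement GGGCGG), an ETS core (GGAAGT or ACTTCC) or a MAF half-site (TGCTGAC or GTCAGCA). The sequence before Gas6 is chr8:13494536-13494785 (minus strand), with 10 CpG and 4 GC boxes, and that before Pros1 is chr16:62854057-62854306 (plus strand), with 15 CpG and 5 GC boxes, of which the last 2 overlap.
Gas6: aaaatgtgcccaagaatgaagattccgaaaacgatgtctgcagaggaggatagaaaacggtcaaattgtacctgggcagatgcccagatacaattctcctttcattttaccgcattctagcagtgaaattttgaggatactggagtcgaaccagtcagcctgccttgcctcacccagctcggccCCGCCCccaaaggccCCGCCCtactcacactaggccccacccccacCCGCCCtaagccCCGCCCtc
Pros1: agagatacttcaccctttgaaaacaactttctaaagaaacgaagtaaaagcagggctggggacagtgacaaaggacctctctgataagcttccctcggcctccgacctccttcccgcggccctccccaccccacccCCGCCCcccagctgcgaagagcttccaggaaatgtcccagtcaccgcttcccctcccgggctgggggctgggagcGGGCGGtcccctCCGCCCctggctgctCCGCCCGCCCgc

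Over 32851 promoters of the same length, the median number of CpG was 6 and 32.7% held a GC box. Neither ligand's sequence held the ETS core, which 19.7% of the promoters held, the MAF half-site (3.81%) or a TATA box (TATAAA or TTTATA, 12.4%). These matches describe letters only, and no binding was measured.

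None of the TAM receptors passed the test. Axl, which is linked to uptake under inflammatory conditions, lies at chr7:25757273-25788705 on the minus strand and stood at 170, 281 and 161 CPM in the Lyve-1- replicates and 89.8, 190 and 185 CPM in the Lyve-1+ replicates. The highest value was in a Lyve-1- and the lowest in a Lyve-1+ library, and the other 4 libraries lay between 161 and 190 CPM. The means were 204 ± 66.7 and 155 ± 56.6 CPM (SD, n = 3), with a log2 fold change of -0.40 ± 0.34 (SE) and an edgeR adjusted p of 1. It was the only one of the 7 members tested with a fold change below 0.

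Mertk, the receptor best known for efferocytosis by resident macrophages, lies at chr2:128698956-128802894 on the plus strand. It stood at 66.9, 83.7 and 49.1 CPM in the Lyve-1- replicates and 125, 135 and 65.6 CPM in the Lyve-1+ replicates. Lyve-1+ replicate 3 fell inside the range of the Lyve-1- libraries, and the other Lyve-1+ libraries were above it. The means were 66.6 ± 17.3 and 108 ± 37.3 CPM (SD, n = 3), with a log2 fold change of 0.70 ± 0.36 (SE) and an edgeR adjusted p of 0.733.

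Tyro3, the TAM receptor best known from the nervous system, lies at chr2:119797733-119818104 on the plus strand and had 0, 0 and 29 counts in the Lyve-1- replicates and 12, 7 and 0 counts in the Lyve-1+ replicates. The counts lay in the 3 libraries with the most olfactory receptor counts. At the olfactory density, a gene of its length would have 0.213, 0.577 and 16.4 counts in the Lyve-1- and 6.31, 7.25 and 0.323 counts in the Lyve-1+ replicates, so that Tyro3 had counts only in libraries where this background came to 6.31 counts or more. It was left out of the edgeR fit by the filter, and DESeq2 gave a log2 fold change of -1.80 ± 3.46 (SE), with an adjusted p of 0.973.

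**Figure D3:**
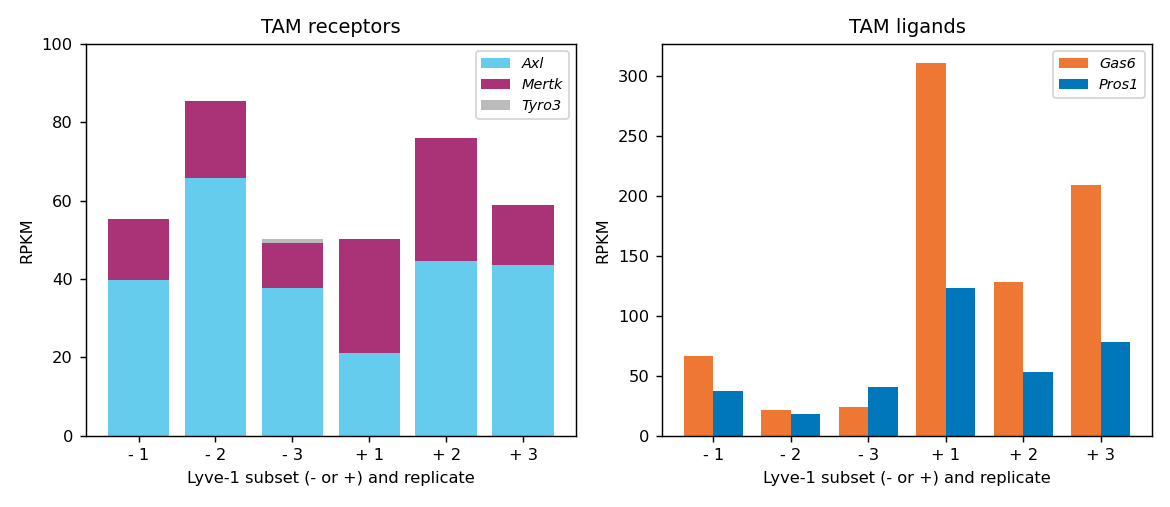
RPKM (y axis, linear from 0) of the TAM receptors, stacked, and of the TAM ligands, side by side, in each library (x axis: subset sign and replicate number). The receptor sums run from 50.3 to 85.3 RPKM and overlap between subsets, while Gas6 runs from 21.2 to 66.4 RPKM in Lyve-1- and from 128 to 311 RPKM in Lyve-1+ libraries.

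Levels of different genes were compared per length, as RPKM (CPM divided by the length of the principal transcript in kilobases). The summed level of the TAM receptors was 63.7 ± 18.9 RPKM in Lyve-1- and 61.7 ± 13.1 RPKM in Lyve-1+ (SD, n = 3), an exact two-sided permutation p of 0.9. Within that sum, Axl made up 71.9, 77.2 and 75.2% in the Lyve-1- replicates and 41.9, 58.7 and 74% in the Lyve-1+ replicates, and Mertk nearly all of the rest. The ratio of Axl to Mertk was 2.56, 3.39 and 3.31 in Lyve-1- and 0.726, 1.43 and 2.85 in Lyve-1+ libraries, which overlapped, with an exact permutation p of 0.2. Mertk was above Axl in Lyve-1+ replicate 1 only.

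The ligands were set against each other and against the receptors in the same way. The ratio of Gas6 to Pros1 was 1.79, 1.17 and 0.594 in Lyve-1- and 2.53, 2.41 and 2.66 in Lyve-1+ libraries, so that Gas6 was the more abundant ligand transcript in all 3 Lyve-1+ and in 2 of the 3 Lyve-1- libraries. The exact permutation p was 0.1, the smallest that 3 against 3 libraries can give. The ratio of Gas6 to Axl was 1.67, 0.321 and 0.641 in Lyve-1- and 14.8, 2.88 and 4.8 in Lyve-1+ libraries, which also did not overlap (exact permutation p = 0.1). The ratio of Gas6 to Mertk ran from 1.09 to 4.27 in Lyve-1- and from 4.1 to 13.7 in Lyve-1+ libraries, which overlapped (exact permutation p = 0.2). The p-values of these within-library ratios are unadjusted.

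Timd4, which encodes Tim-4, was the member with the smallest p. It lies at chr11:46810800-46844332 on the plus strand and had 832, 1435 and 506 counts in the Lyve-1- replicates, or 69.9, 127 and 73.8 CPM. The Lyve-1+ replicates had 5760, 8390 and 2038 counts, or 439, 402 and 257 CPM. The lowest Lyve-1+ library was above the highest Lyve-1- library, and the 6-week pools showed no common place in the order, being lowest in Lyve-1- and highest in Lyve-1+. The means were 90.4 ± 32.2 and 366 ± 96.3 CPM (SD, n = 3), with a log2 fold change of 2.02 ± 0.32 (SE) and an edgeR adjusted p of 0.012. DESeq2 gave an adjusted p of 2.4e-06, and edgeR gave 0.0811 when Lyve-1- replicate 3 was left out. With Lyve-1+ replicate 3 left out, the log2 fold change was 2.19, with an adjusted p of 0.00143.

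Trem2, a receptor for lipids and apoptotic cells that signals through Tyrobp, lies at chr17:48346401-48354147 on the plus strand and had 79, 222 and 77 counts in the Lyve-1- and 385, 555 and 229 counts in the Lyve-1+ replicates. In CPM it stood at 6.64, 19.7 and 11.2 in Lyve-1- and 29.3, 26.6 and 28.9 in Lyve-1+. The Lyve-1+ libraries lay close together and above the others. The means were 12.5 ± 6.64 and 28.3 ± 1.46 CPM (SD, n = 3), but the log2 fold change of 1.17 ± 0.64 (SE) did not pass the test, with an edgeR adjusted p of 0.785.

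The promoter of Timd4 is chr11:46810549-46810798 (plus strand), with 4 CpG, a MAF half-site from base -45 to -39 and an ETS core from base -72 to -67 before the start, and that of Trem2 is chr17:48346151-48346400 (plus strand), with 4 CpG and none of the motifs searched. They are shown beside those of the ligands for the reason given there, with the same capitals.
Timd4: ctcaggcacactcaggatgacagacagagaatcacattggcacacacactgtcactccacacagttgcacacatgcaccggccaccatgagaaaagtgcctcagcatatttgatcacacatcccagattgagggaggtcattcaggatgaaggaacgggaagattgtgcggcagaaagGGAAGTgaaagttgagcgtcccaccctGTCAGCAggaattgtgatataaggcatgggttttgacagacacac
Trem2: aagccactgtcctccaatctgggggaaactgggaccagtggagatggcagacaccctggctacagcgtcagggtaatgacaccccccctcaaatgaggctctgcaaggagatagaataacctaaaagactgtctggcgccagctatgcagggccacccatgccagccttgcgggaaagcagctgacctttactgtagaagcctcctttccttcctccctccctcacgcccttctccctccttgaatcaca

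Unlike Gas6 and Pros1, neither of these sequences held a GC box, and the number of CpG in each was below the median of all promoters. The promoters of Axl, Mertk, Tyro3 and Mfge8, which are not shown, also held GC boxes (1, 3, 3 and 4).

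Mfge8, the bridging protein also called lactadherin, lies at chr7:79133768-79149060 on the minus strand and stood at 37.1, 39.6 and 36 CPM in the Lyve-1- replicates and 27.6, 70.1 and 41.8 CPM in the Lyve-1+ replicates. The Lyve-1- libraries lay between the lowest and the middle Lyve-1+ library. The means were 37.6 ± 1.85 and 46.5 ± 21.6 CPM (SD, n = 3), with a log2 fold change of 0.31 ± 0.45 (SE) and an edgeR adjusted p of 1, and it turned to -0.13 without Lyve-1+ replicate 2.

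**Figure D4:**
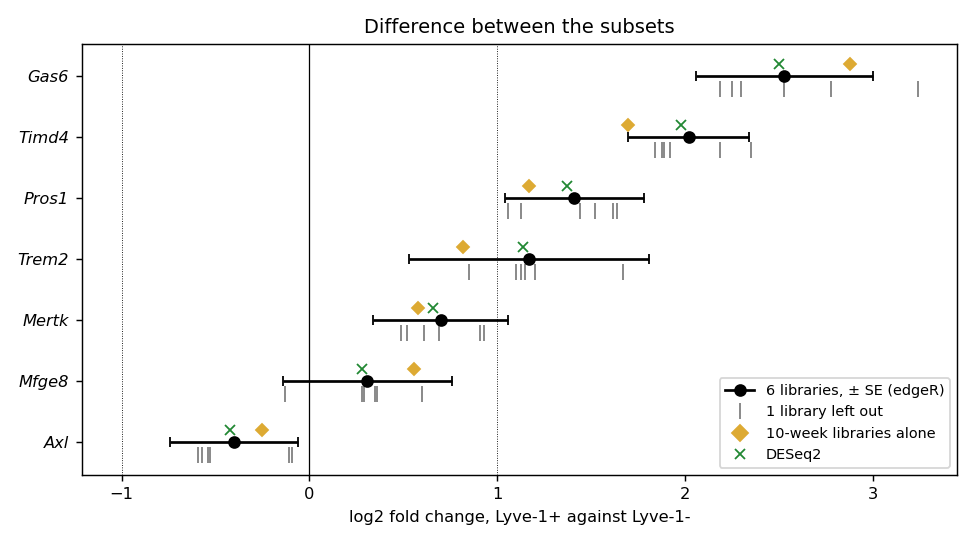
Log2 fold change of Lyve-1+ against Lyve-1- libraries (x axis) for the 7 members tested (y axis), with the SE of the edgeR fit as bars and, as smaller marks, the fits that left out 1 library, those on the 10-week libraries alone and those by DESeq2. Dotted lines mark a log2 fold change of 1 in either direction. Gas6 stays between 2.19 and 3.24 and Timd4 between 1.7 and 2.35 over these fits, and Mfge8 crosses 0.

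Per length, the order of the members also differed between the subsets. In Lyve-1- macrophages the mean levels were 47.8 ± 15.6 RPKM for Axl, 41.6 ± 14.8 for Timd4, 37.3 ± 25.3 for Gas6, 32 ± 12.2 for Pros1, 17.7 ± 0.871 for Mfge8, 15.5 ± 4.02 for Mertk, 11.5 ± 6.1 for Trem2 and 0.353 ± 0.612 for Tyro3 (SD, n = 3). Each neighbouring pair in this order had overlapping ranges except Trem2 and Tyro3. In Lyve-1+ macrophages they were 216 ± 91.5 RPKM for Gas6, 168 ± 44.3 for Timd4, 84.9 ± 35.4 for Pros1, 36.4 ± 13.3 for Axl, 26 ± 1.35 for Trem2, 25.2 ± 8.67 for Mertk, 21.9 ± 10.2 for Mfge8 and 0.104 ± 0.116 for Tyro3. Here the ranges of Pros1 and Axl and of Mfge8 and Tyro3 did not overlap, and the other neighbours did. By their means, Gas6, Timd4 and Pros1 thus stood above the receptors Axl and Mertk in Lyve-1+ libraries, whereas Axl had the highest mean in Lyve-1- libraries. With the length of all annotated exons in place of the principal transcript, Trem2 came to 5.71 RPKM in Lyve-1+, below Mfge8, and Timd4 stood above Axl in Lyve-1-.

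The 10-week libraries taken alone, with 2 of each subset, gave a log2 fold change of 2.88 ± 0.39 (SE) for Gas6, with an edgeR adjusted p of 0.00258, and this was the only member past the stricter limits, which 0.132% of 13625 genes passed. For Timd4 it was 1.7 ± 0.41, with an adjusted p of 0.159. At 6 weeks there was 1 library of each subset, with 4.68 times as much Gas6, 6.28 times as much Timd4 and 4.42 times as much Trem2 in Lyve-1+ as in Lyve-1-, and these ratios have no replicate check.

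Age was compared across both subsets, 10 weeks against 6 weeks, and cannot be told apart from the 6-week pools. Gas6 was lower at 10 weeks in both subsets, with 169 CPM at 6 weeks and a mean of 57.9 CPM at 10 weeks in Lyve-1-, and 792 against 429 CPM in Lyve-1+. Its log2 fold change was -1.23 ± 0.29 (SE), with an edgeR adjusted p of 0.421. By edgeR on all 6 libraries, no member and no gene (0%) was called for age, while DESeq2 called 14 genes, none of them a member, and 2 members, Gas6 and Axl (0.71 ± 0.33), had an unadjusted p under 0.05, against 3.33% of all genes. DESeq2 gave Gas6 an adjusted p of 0.0572. The interaction of subset and age called 0 members and 0% of genes by edgeR, and none of the 7 members had an unadjusted p under 0.05 for it, against 4.59% of all genes. The interaction was largest for Trem2, at -1.3 ± 1.45 (SE), and for Timd4 it was -0.94 ± 0.66.

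The wider pathway was described with 10 lists of 88 genes, of which 82 passed the filter. None was called at the stricter limits, and an adjusted p under 0.05 was found for C1qa, higher in Lyve-1+, and Siglecg, lower in Lyve-1+ (0.18% of all genes passed in that direction). Of the 82, 41 had a log2 fold change above and 41 below 0 with a median of 0, and 20 had an unadjusted p under 0.05, against 7.69% of all genes. The Lyve-1+ libraries lay above the others for 14 genes and below them for 9, against 7.82% and 6.5% of all genes. DESeq2 called 4, namely C1qa, C1qb, C1qc and Siglecg, against 0.999% of its genes.

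Bridging molecules other than the members (9 of 13 tested, median 0.17) ran from Ptx3 at -0.49 to C1qa at 1.66 on the log2 scale. C1qa, a chain of the complement component C1q that coats dying cells, stood at 274, 234 and 144 CPM in the Lyve-1- and 1030, 548 and 486 CPM in the Lyve-1+ replicates, with no overlap and an edgeR adjusted p of 0.0376. The other chains C1qb (1.30, adjusted p = 0.0689) and C1qc (1.66, adjusted p = 0.0697), named after their values were seen, were also higher in each Lyve-1+ library.

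Phosphatidylserine receptors other than Timd4 (8 of 9 tested, median -0.17) ran from Cd300lb at -0.80 to Ager at 1.36, and none passed an adjusted p under 0.05. Stab1, a scavenger receptor of resident macrophages named here after its values were seen, rested on higher counts than Ager and stood at 349, 258 and 170 CPM in Lyve-1- and 837, 574 and 406 CPM in Lyve-1+, with a log2 fold change of 1.23 ± 0.32 (SE) and an edgeR adjusted p of 0.145. The integrins and scavenger receptors (9 of 10 tested, median -0.14) ran from Itgav at -1.48 to Scarf1 at 1.28. Itgav, the integrin chain that binds Mfge8, stood at 99.6, 136 and 81.8 CPM in Lyve-1- and 26.2, 70.6 and 16.8 CPM in Lyve-1+, with no overlap and an adjusted p of 0.305. Its partner Itgb5, chosen after its values were seen, had a log2 fold change of -0.95 ± 0.39 (SE), again with no overlap, and an edgeR adjusted p of 0.537. The integrin chain Itgb3, also chosen after its values were seen, was at -0.80 ± 0.85 (SE), and its values overlapped between the subsets.

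The enzymes that process the TAM ligands and receptors (5 of 5 tested, median 0.29) ran from Furin at -0.42 to Ggcx at 2.12. Ggcx, the vitamin K-dependent carboxylase that acts on Gas6 and Pros1, stood at 6.81, 7.29 and 19.2 CPM in the Lyve-1- and 55.9, 38 and 50 CPM in the Lyve-1+ replicates. The subsets did not overlap, as for the ligands, and the edgeR adjusted p was 0.164. Genes of TAM signalling to interferon and cytokines (9 of 9 tested, median 0.27) ran from Socs1, an inhibitor of cytokine signalling, at -0.95 to Twist1, a transcription factor, at 2.90 ± 1.5 (SE), with adjusted p-values of 1 and 0.733.

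Adaptors and kinases of Trem2 (6 of 6 tested, median -0.38) held no gene with an adjusted p under 0.05. They ran from Plcg2, a phospholipase that acts downstream of the receptor, at -0.77 ± 0.26 (SE; adjusted p = 0.332) to Pik3ap1 at 0, and Tyrobp, the adaptor itself (named after its values were seen), was at -0.22 ± 0.27. The engulfment machinery (11 of 11 tested, median -0.10) ran from Elmo1, the partner of the exchange factor Dock1, at -0.83 to Gulp1, an adaptor protein, at 2.56 ± 2.08 (SE). Genes of phagosome maturation and cargo handling (14 of 14 tested, median 0.23) ran from Pparg at -0.59 to Abca1 at 0.86. Abca1, the cholesterol exporter, was higher in each Lyve-1+ library, at 1020 ± 282 CPM against 563 ± 151 CPM (SD, n = 3), with an edgeR adjusted p of 0.299.

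Of the receptors for signals from dying cells, none of the 6 tested passed an adjusted p under 0.05 (median 0.09), and they ran from P2ry2 at -2.11 to P2ry12 at 1.92. The Lyve-1+ libraries lay above the others for 3 of them and below them for the other 3, against 7.82% and 6.5% of all genes. Both P2ry genes encode nucleotide receptors. The genes of the restraining signals on engulfment (5 of 5 tested, median -0.55) ran from Siglecg at -4.02 to Pecam1 at 0.51. Siglecg, which encodes a lectin that binds Cd24a, stood at 66, 16.9 and 54.7 CPM in the Lyve-1- and 1.07, 5.27 and 2.02 CPM in the Lyve-1+ replicates, with an edgeR adjusted p of 0.0333. The sums of dendritic cell markers were likewise higher in Lyve-1- libraries, and their part in this difference was not tested.

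**Figure D5:**
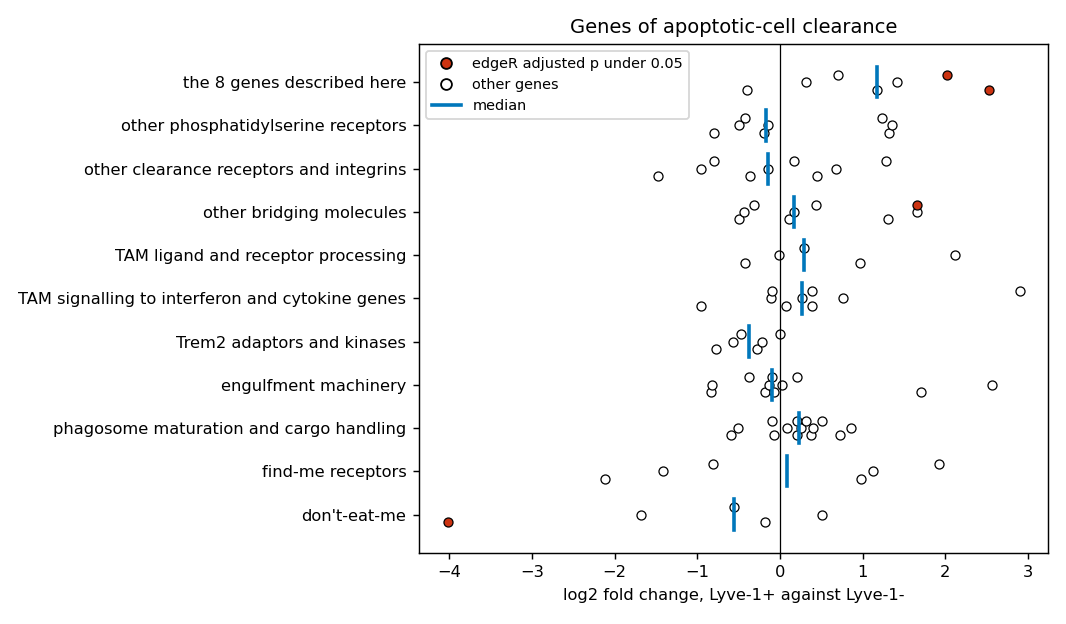
Log2 fold change of Lyve-1+ against Lyve-1- libraries (x axis) for the members and the 10 lists (y axis), with 1 point per gene tested, filled where the edgeR adjusted p was under 0.05, and a bar at the median of each list. Gas6 and Timd4 are the filled points among the members, C1qa and Siglecg are filled among the lists, and the list medians lie between -0.55 and 0.29.

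The genes most like Gas6 over the 6 libraries, by the root mean square difference in log2 CPM after each gene was centred on its own mean, were Gpt2 (0.29), Stk39 (0.38) and Fam43a (0.41). Those most like Timd4 were Ifi27l2a (0.15), Gm4951 (0.24) and Nt5c3 (0.24). Among the members, the most alike were Axl and Mfge8 (0.43) and Timd4 and Trem2 (0.50), while Gas6 and Pros1 differed by 0.77 and Gas6 and Axl by 1.82. For scale, the root mean square of all genes around their own means was 1.37. The 6 libraries share 2 subsets, so any gene that differs between the subsets comes near Gas6 and Timd4 by this measure.

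The members that differed were read beside the 12 fibroblast markers. For 7 of the 12, every Lyve-1+ library was also above every Lyve-1- library, against 7.82% of all genes. The median log2 fold change of the 12 was 1.69. The fibroblast sum was 2620, 1970 and 7700 CPM in Lyve-1+ replicates 1, 2 and 3. In the same libraries Gas6 stood at 792, 327 and 532 CPM, Pros1 at 407, 176 and 259 CPM and Timd4 at 439, 402 and 257 CPM. The cells were sorted on CD45, CD11b and F4/80, and the part of fibroblast RNA in the levels of these genes was not tested. In its single-cell data, which were not analysed here, the paper reports Gas6 as enriched in the macrophage cluster with Lyve1.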

How the data were processed

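The authors aligned paired 50-bp reads from a stranded total RNA kit to mm10 with HISAT2 2.0.2 and counted them per gene with featureCounts 1.5.0, and deposited whole-number counts without normalization. The strand setting and annotation are not given in the sources used here. The methods name DESeq2 for the differential test. From the deposited counts, 13348 genes were kept by filterByExpr and scaled by TMM, and Lyve-1+ was compared with Lyve-1- by the quasi-likelihood F test of edgeR (robust) and Benjamini-Hochberg adjustment over all genes tested (R 4.3.3, edgeR 4.0.16, limma 3.58.1, DESeq2 1.42.0). A call required an adjusted p below 0.01 with a log2 fold change of size between 1 and 10. The log2 CPM used a prior count of 2. Library totals ran from 6478007 to 21406839 counts, which sets the precision of low genes. Exact two-sided permutation tests compared log2 ratios within libraries. Lengths and positions came from GENCODE M21, in which 22749 symbols matched directly, 934 through a synonym and 378 not at all.

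The members and lists were chosen with earlier results of these data known. The genes named were the members, in each list those called and the highest and lowest log2 fold changes, the 3 most like Gas6 and Timd4, and Lyve1, and others are marked in the text. The alternatives were DESeq2, other scalings, other filters, age as a covariate, a replicate block, only the 10-week libraries, subtraction of the olfactory receptor background, a threshold of 0.05, each library left out, and, chosen after seeing the data, removal of the 2 libraries with the most olfactory receptor counts. The tests were tested on simulated data. Single-cell data of the study were not analysed here.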

Additional observations from a re-analysis of the deposited data

How the results depend on the processing

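The direction of Gas6, Pros1, Axl, Mertk, Timd4 and Trem2 held under all 16 refits, with log2 fold changes of 2.19 to 3.24 for Gas6 and 1.7 to 2.35 for Timd4. Mfge8 ran from -0.13 to 0.6 with 1 library left out, turning to -0.13 without Lyve-1+ replicate 2 and to -0.14 without the 2 libraries with the most olfactory receptor counts (chosen after seeing the data). The number of members called at the stricter limits, 0, became 2 (Gas6 and Timd4) by DESeq2, with age as a covariate and at an adjusted p under 0.05 alone, 3 (with Pros1) with no filter on low counts, and 1 with at least 10 counts in every library (Timd4) or in the 10-week libraries alone (Gas6). Over all genes, calls rose as well, from 15 of 13348 to 154 of 15419 by DESeq2 and 58 of 13348 with age as a covariate. An adjusted p under 0.05 alone was passed by 84 of 13348. Calls came to 188 of 21663 with no filter, 32 of 8865 with at least 10 counts and 18 of 13625 in the 10-week libraries. The number of members stayed at 0 with DESeq2 size factors, total library size, the background subtracted and without the libraries richest in olfactory counts, where 15, 16, 11 and 0 of all genes were called. It ran from 0 to 2 when 1 library was left out. It was 0 without Lyve-1- replicate 3 or Lyve-1+ replicate 1, 1 without Lyve-1- replicate 2 or Lyve-1+ replicate 3 (Timd4) and 2 without Lyve-1- replicate 1 or Lyve-1+ replicate 2 (Gas6 and Timd4). In the same order, these fits called 1, 23, 35, 46, 65 and 81 of all genes, with 13654 to 15523 genes tested. The number of pathway genes called, 0, became 4 by DESeq2, 7 with no filter, 2 with age as a covariate and 2 at an adjusted p under 0.05, and ran from 0 to 3 with 1 library left out. The calls over all genes in these fits are those given above. For age the number of members called ran from 0 to 1. The 1 was Gas6 without Lyve-1+ replicate 3 (-1.44, edgeR adjusted p = 0.00876), in a fit that called 20 of 15523 genes. The causes were not tested. With the replicate number as a block, 3 members (Gas6, Pros1 and Timd4), 5 pathway genes and 140 of all 13348 genes were called. Deviations of same-numbered libraries from their subset means had correlations of -0.05, 0 and -0.15. These ran over all genes kept, low counts included, with 3 libraries per subset, so they cannot decide whether the libraries were paired. The labels give same-numbered libraries nothing in common but the number and the age. Whether they shared mice is not stated. Tyro3, with 48 counts in all, gave too few counts for the filter.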
